A study of Mus musculus with 9 samples.

Results

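The Kruppel-like factor genes described here are Klf2, Klf3, Klf4, Klf6, Klf7, Klf9, Klf10 and Klf13, measured in cultured mouse microglia before and after the cells engulfed dying neuronal cells. Their probes were found by gene name among the non-control probes of a mouse array, which gave 11 probes for 8 genes, of 55681 probes for 34650 gene names. Of these probes 10, covering all 8 genes, were well above background on every one of the 9 arrays, and 1 probe of Klf13 was on none. The cultures were primary microglia of fms-EGFP mice, a reporter line in which EGFP is driven by the c-fms promoter, prepared from pooled brains of newborn pups and grown with GM-CSF in all groups. Control microglia had no phagocytic stimulus. Ph3h and Ph24h microglia were fed for 3 h or 24 h with dying cells of the human neuroblastoma line SH-SY5Y, made apoptotic by 3 µM staurosporine for 4 h, and each group had 3 arrays from 3 independent experiments. No unfed culture kept for 3 or 24 h is among the arrays, so feeding and time in culture cannot be told apart in any comparison with control, and both of these comparisons use the same control arrays.

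Kruppel-like factors are transcription factors that bind GC-rich and CACCC sequences through zinc fingers at the end of the protein, and they activate or repress genes according to the cofactors they recruit. Klf2 and Klf4 are immediate early genes in many cells and are best known for restraining inflammatory activation of endothelial cells and macrophages. Klf6 is the member most associated with inflammatory macrophages, Klf7 with growth of neurons, Klf9 and Klf13 with hormone response and lymphocytes, Klf10 with TGF-beta signaling, and Klf3 with repression through CtBP.

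The sequences shown are those that bear on the results below: the upstream regions of the pair of genes that changed most, and 2 probes whose place in the coding sequence tells what was measured. Of the 8 genes 7 have a promoter in RefSeq (GRCm38.p6), and the 250 bases before the start are given for Klf2 (chr8:72318812-72319061, plus strand) and Klf4 (chr4:55532476-55532725, minus strand), 5′ to 3′. Capitals mark the box CACCC, the GC box, which is GGGCGG, and the box bound by MEF2 factors, each searched on both strands, with no overlap between different motifs in these windows.
Klf2: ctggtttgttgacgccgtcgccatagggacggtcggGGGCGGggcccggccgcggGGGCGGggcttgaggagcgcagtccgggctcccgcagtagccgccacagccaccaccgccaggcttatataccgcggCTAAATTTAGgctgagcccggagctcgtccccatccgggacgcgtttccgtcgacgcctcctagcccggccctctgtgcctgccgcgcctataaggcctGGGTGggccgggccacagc
Klf4: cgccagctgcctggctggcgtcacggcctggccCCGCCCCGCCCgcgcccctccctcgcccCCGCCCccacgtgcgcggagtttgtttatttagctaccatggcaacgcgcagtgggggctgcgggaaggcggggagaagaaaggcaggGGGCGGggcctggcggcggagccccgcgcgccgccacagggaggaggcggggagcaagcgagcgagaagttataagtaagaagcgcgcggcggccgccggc
The Klf2 window held 1 CACCC, 2 GGGCGG and 1 MEF2 box, and the Klf4 window held 4 GGGCGG and neither of the others. Among 32851 mouse promoter windows of the same length, 52% held CACCC, 32.7% held GGGCGG and 0.508% held the MEF2 box. None of the other 5 member windows held a MEF2 box.

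The probe for Klf13 lies in the coding sequence, and capitals mark its codons for cysteine and histidine, the kinds of residue that hold zinc in fingers of this family, though not every one marked does so. The probe for Klf7 spans the end of the coding sequence, and capitals mark its bases up to and including the stop codon.
Klf13 probe: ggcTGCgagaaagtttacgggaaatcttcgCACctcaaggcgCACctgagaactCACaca
Klf7 probe: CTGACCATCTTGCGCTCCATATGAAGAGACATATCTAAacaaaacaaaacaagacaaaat
The Klf13 probe reads through without a stop codon over its 60 bases, and the Klf7 probe holds 22 bases after the stop.

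The levels below are log2 intensities from which the 75th percentile of the same array was subtracted, so 0 is the level of a gene at that percentile. A level is compared only with the same probe on other arrays, since probes differ in how brightly they hybridize. The 75th percentile itself was 355 to 472 intensity units for control, 185 to 211 for Ph3h and 156 to 161 for Ph24h, and no spot was saturated. By the paper's methods, a fixed amount of total RNA was labeled and a fixed amount of labeled RNA hybridized for each array. These intensities therefore measure neither the number of cells nor the RNA per cell. Groups were fitted together in limma for 24101 genes, and a gene was called changed at a Benjamini-Hochberg adjusted p below 0.05. All 14 microglia markers were well above background in control, and P2ry12 was well above it on no Ph24h array. Of these markers 7 were called higher and 3 lower at 3 h, then 2 higher and 10 lower by 24 h (medians 0.20 and -0.52). Of the SH-SY5Y marker list 15 of 20 genes were measured. Their summed level lay between 4.02 and 4.63 for control, between 190 and 207 for Ph3h and between 234 and 251 for Ph24h. Such sums are in units of the 75th percentile. Of the 15 genes 11 were called higher, 1 lower and 3 neither at 3 h, then 12 higher and 3 neither by 24 h. Marker sums of other brain cells also differed between the groups, with 262 to 323 for control, 418 to 475 for Ph3h and 208 to 242 for Ph24h over 7 oligodendrocyte genes, and with 6.44 to 7.58, 10.9 to 13.2 and 4.49 to 4.82 over 6 astrocyte genes. Their members did not move together: of the oligodendrocyte genes 3 were called higher and 2 lower at 3 h, then 2 higher and 3 lower by 24 h, and of the astrocyte genes 1 was higher at 3 h and 1 lower by 24 h. The part that RNA of the fed cells or of these cell types had in the changes described here was not tested.

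At 3 h, 5 of the 8 Kruppel-like factor genes were higher than in control (Klf2, Klf4, Klf6, Klf7 and Klf13), 1 was lower (Klf3), and Klf9 and Klf10 did not pass the test. At 24 h, 6 were higher (Klf2, Klf4, Klf6, Klf7, Klf9 and Klf13) and 2 were lower (Klf3 and Klf10). Across all genes tested, 27.9% were higher and 25.9% lower at 3 h, beside 29.9% higher and 33.2% lower by 24 h. The median log2 fold change of the 8 genes was 0.44 at 3 h and 0.57 at 24 h, beside 0.07 and 0.01 over all genes tested. The rises of Klf2 at both times and of Klf4 at 3 h passed the test under every scaling of the arrays that was tried, whereas spike-in probes turned the rises of Klf6, Klf7 and Klf13 at 3 h and of Klf4, Klf6, Klf9 and Klf13 at 24 h to values below 0, and median scaling did so for Klf6 and Klf13 at 24 h.

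**Figure D1:**
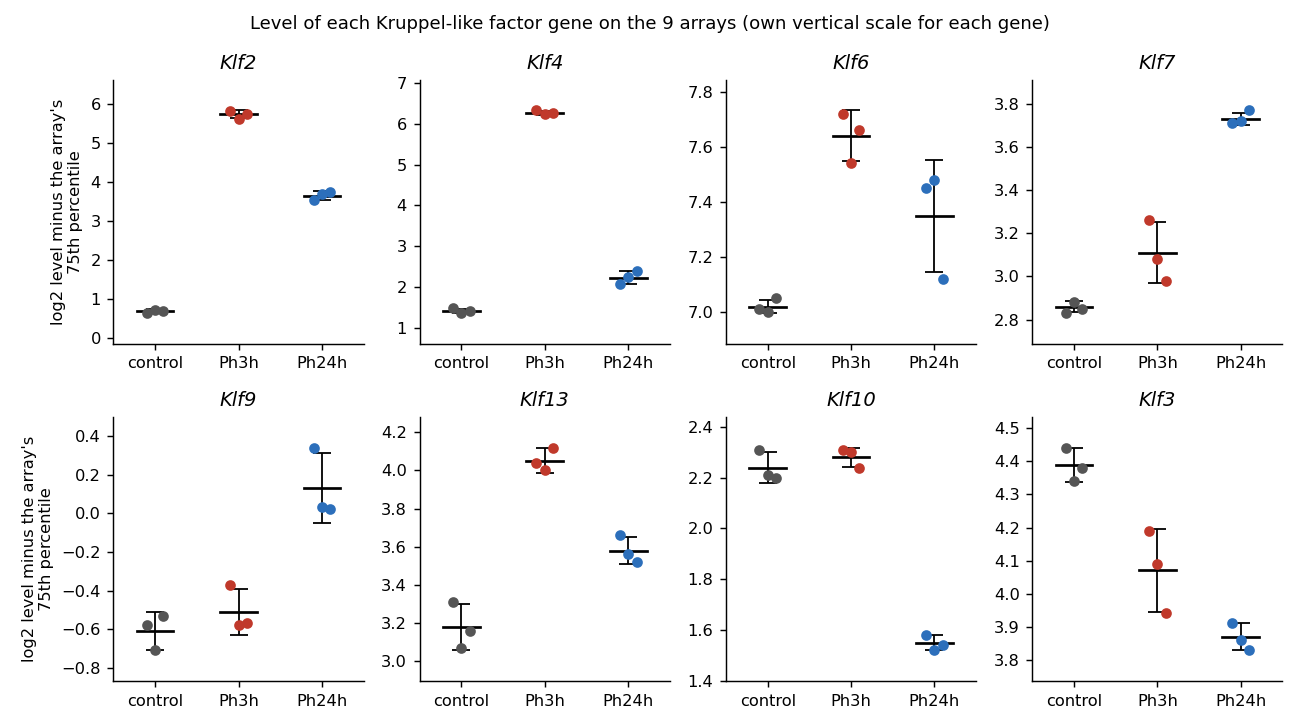
Level of each Kruppel-like factor gene on each array, as log2 intensity minus the 75th percentile of the array (vertical axis, own scale for each gene), in control, Ph3h and Ph24h microglia. Points are arrays, and the line and bars are the mean and SD (n = 3). Klf2 and Klf4 rose above 5.6 and 6.2 on all Ph3h arrays, Klf10 was lower only on the Ph24h arrays, and Klf7 was highest on the Ph24h arrays.

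Klf2, which restrains NF-kB dependent gene expression in macrophages and keeps vessels and T cells quiescent, had the largest rise of the family. Its levels were 0.64, 0.73 and 0.69 in the 3 control cultures, 5.82, 5.62 and 5.74 after 3 h and 3.53, 3.69 and 3.74 after 24 h. The 3 groups did not overlap, with Ph3h highest and control lowest. Before scaling, the probe (mm9, chromosome 8, 74845137 to 74845196) read 572 to 737 intensity units in control, rose to between 9065 and 11956 in Ph3h and came to 1818 to 2155 in Ph24h. Klf2 rose 32.9-fold by 3 h (log2 fold change 5.04, SE 0.08, adjusted p = 2.73e-08), the 138th highest change of 24101 genes. After 24 h it stood 7.82-fold above control (log2 fold change 2.97, SE 0.08, adjusted p = 1.80e-07). From 3 h to 24 h it fell 4.20-fold (adjusted p = 2.06e-06), which left it above control on all 3 Ph24h arrays. Under the alternatives tried, the log2 fold change ranged from 4.16 to 5.04 at 3 h and from 2.15 to 3.06 at 24 h.

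Klf4, which takes part in monocyte differentiation and in alternative activation of macrophages, rose steeply at 3 h and had lost most of this rise by 24 h. It read 1.48, 1.38 and 1.41 in control, 6.33, 6.23 and 6.26 in Ph3h and 2.07, 2.24 and 2.39 in Ph24h. All Ph3h arrays lay above all Ph24h arrays, which lay above all control arrays. The probe (mm9, chromosome 4, 55540167 to 55540226) read 946 to 1320 intensity units in control, 13865 to 16961 in Ph3h, then 660 to 847 in Ph24h, so that the unscaled Ph24h readings were below those of control. At 3 h Klf4 was 28.8-fold higher (log2 fold change 4.85, SE 0.09, adjusted p = 4.35e-08). After 24 h it stood 1.75-fold above control (log2 fold change 0.81, SE 0.09, adjusted p = 1.38e-04), and with spike-in scaling the difference at 24 h was -0.01 on the log2 scale. The fall from 3 h to 24 h was 16.4-fold (log2 fold change -4.04, SE 0.09, adjusted p = 5.08e-07), the 18th lowest change of 24101 genes.

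The pair parted between 3 h and 24 h, and this can be read within each array, where scaling by 1 factor per array has no effect. The change of Klf2 from its control mean minus that of Klf4 was -0.10, 0.09 and 0.01 in control and 0.23, 0.12 and 0.21 in Ph3h. In Ph24h the same difference was 2.20, 2.19 and 2.09. Neither fed group overlapped control (two-sided exact permutation p = 0.10 for each, the smallest that 3 arrays against 3 allow). The difference of means from control was 0.19 for Ph3h and 2.16 for Ph24h. Ph24h was not tested against Ph3h in this way. The comparison of Klf2 with Klf4 was chosen after the values were seen. Both genes are expressed by endothelial cells, and among the endothelial markers Cldn5, Tek, Tie1 and Emcn were not well above background on any array. The summed level of the 4 measured endothelial markers was 8.17 to 11.3 in control, 12.1 to 12.3 in Ph3h, then 13.6 to 15.3 in Ph24h, and Cdh5 was well above background on no Ph3h or Ph24h array. The sum was mostly the Kdr probe (log2 fold changes 0.37 and 0.64), whereas Flt1 was lower at both times (-1.09 and -2.17). Of the 4 markers, 2 were called higher and 2 lower at 3 h, and 1 higher with 2 lower by 24 h (medians -0.27 and -0.67).

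**Figure D2:**
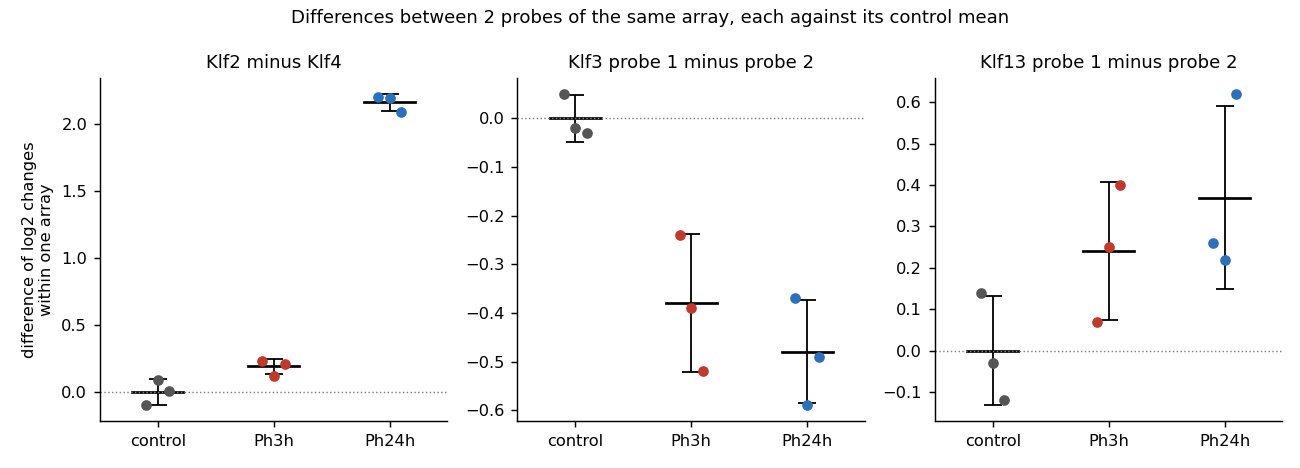
Difference between 2 log2 changes taken on the same array, each change being a probe's level minus its control mean (vertical axis), for Klf2 minus Klf4 and for the 2 probes of Klf3 and of Klf13. Points are arrays, with mean and SD (n = 3). Klf2 minus Klf4 was 2.09 to 2.20 on the Ph24h arrays and at most 0.23 elsewhere, and the first Klf3 probe lay below the second on every Ph3h and Ph24h array.

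Klf6, which supports NF-kB activity in macrophages, had levels of 7.01, 7.00 and 7.05 in control, 7.72, 7.54 and 7.66 in Ph3h and 7.45, 7.48 and 7.12 in Ph24h. Every Ph3h and Ph24h array was above every control array, and the third Ph24h array lay close to control. The rise was 1.54-fold at 3 h (log2 fold change 0.62, SE 0.11, adjusted p = 0.00186). The value at 24 h was 0.33 (SE 0.11, adjusted p = 0.0273), and it no longer passed the test without any 1 of the 3 control arrays or without replicate 1 or 2 of Ph24h (adjusted p 0.0550 to 0.0837). It also missed the threshold with quantile normalization (0.17, adjusted p = 0.106), was -0.18 with median scaling and was 0.07 on slide 2 alone, which held replicate 3 of each group. Between 24 h and 3 h the difference was -0.29 (95% interval -0.54 to -0.04, adjusted p = 0.0596).

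Klf7, a factor of neuronal growth that is also made by myeloid cells, increased with time. Its levels were 2.83, 2.88 and 2.85 in control, 3.26, 3.08 and 2.98 in Ph3h and 3.71, 3.72 and 3.77 in Ph24h. The groups did not overlap and stood in the order of time. At 24 h Klf7 was 1.84-fold higher than control (log2 fold change 0.88, SE 0.08, adjusted p = 4.74e-05), and 1.54-fold higher than at 3 h (adjusted p = 4.38e-04). The rise at 3 h was 0.25 (SE 0.08, adjusted p = 0.0271), and it did not pass the test without any 1 of the 3 control arrays or without replicate 1 or 2 of Ph3h (adjusted p 0.0528 to 0.0743), nor with median scaling (0.00). With spike-in scaling Klf7 was -0.63 at 3 h and 0.06 at 24 h, so its place against control depends on how the arrays are set to each other, while its rise from 3 h to 24 h was 0.36 to 0.81 under all alternatives. The SH-SY5Y marker sum was 190 to 207 in Ph3h and 234 to 251 in Ph24h. Of its 15 measured genes, 5 were called higher, 1 lower and 9 neither between 24 h and 3 h. The part of RNA of the fed cells in the rise of Klf7 was not tested.

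Klf9 is a target of glucocorticoid and thyroid hormone receptors. It read -0.58, -0.71 and -0.53 in control, -0.37, -0.58 and -0.57 in Ph3h and 0.34, 0.03 and 0.02 in Ph24h. Control and Ph3h overlapped, and all Ph24h arrays lay above both. Klf9 was 1.66-fold higher at 24 h than in control (SE 0.11 on the log2 scale, adjusted p = 8.10e-04) and 1.55-fold higher than at 3 h (adjusted p = 0.00261). At 3 h the log2 difference was 0.10 (95% interval -0.16 to 0.36, adjusted p = 0.494). Median scaling gave 0.23 at 24 h (adjusted p = 0.155) and spike-in scaling gave -0.08.

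Klf13, a repressor that also drives chemokine expression in T cells, was highest at 3 h. The coding probe printed above (mm9, chromosome 7, 71082854 to 71082913, minus strand) read 3.31, 3.07 and 3.16 in control, 4.04, 4.00 and 4.12 in Ph3h and 3.66, 3.56 and 3.52 in Ph24h. The 3 groups did not overlap on this probe. It gave a 1.83-fold rise at 3 h (log2 fold change 0.87, SE 0.08, adjusted p = 8.16e-05), which was 0.00 with spike-in scaling. At 24 h the difference was 0.40 (adjusted p = 0.00351), and it was -0.11 with median scaling and -0.42 with spike-in scaling. From 3 h to 24 h it fell by 0.48 on the log2 scale (adjusted p = 0.00220), while slide 1 alone gave -0.41 (adjusted p = 0.0559).

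A second Klf13 probe (mm9, chromosome 7, 71032482 to 71032541), annotated on the plus strand, opposite to the other Klf13 probes, read 2.85, 2.78 and 2.96 in control, 3.66, 3.43 and 3.41 in Ph3h and 3.08, 3.03 and 2.59 in Ph24h. Its Ph3h arrays were above the others, and its control and Ph24h arrays overlapped. In the fit over all probes it was 0.63 higher at 3 h (log2, adjusted p = 0.00804) and 0.03 at 24 h (adjusted p = 0.869). Because of its strand this probe may not measure the Klf13 transcript. With the mean over probes, Klf13 at 24 h was 0.21 and missed the threshold (adjusted p = 0.0875). The difference between the changes of the coding probe and this one within an array was 0.26, 0.22 and 0.62 in Ph24h beside 0.14, -0.03 and -0.12 in control (two-sided exact permutation p = 0.10, the smallest possible). The third probe, whose annotated ends lie 32932 bases apart, was well above background on no array.

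Klf10, first described as a gene induced early by TGF-beta, was the member that fell late. Its levels were 2.31, 2.21 and 2.20 in control, 2.31, 2.30 and 2.24 in Ph3h and 1.58, 1.52 and 1.54 in Ph24h. Control and Ph3h overlapped, and every Ph24h array lay at least 0.6 below every other array. Klf10 was 1.62-fold lower at 24 h than in control (log2 fold change -0.69, SE 0.06, adjusted p = 3.03e-05) and 1.66-fold lower than at 3 h (adjusted p = 3.64e-05). Under the alternatives the difference from control at 24 h ranged from -1.51 to -0.57 and passed the test in all of them. At 3 h it was 0.04 (95% interval -0.09 to 0.17, adjusted p = 0.550), with -0.20 under median scaling and -0.83 under spike-in scaling.

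Klf3, a repressor that recruits CtBP, was measured by 2 probes that gave different answers. The first probe (mm9, chromosome 5, 65221309 to 65221368), the brighter one, read 4.44, 4.34 and 4.38 in control, 4.19, 4.09 and 3.94 in Ph3h and 3.91, 3.86 and 3.83 in Ph24h. Its groups did not overlap and went down with time. The log2 difference from control was -0.32 at 3 h (SE 0.07, adjusted p = 0.00900) and -0.52 at 24 h (SE 0.07, adjusted p = 6.33e-04). On slide 1 alone the 3 h difference was -0.25 and missed the threshold (adjusted p = 0.0712). Between 24 h and 3 h it was -0.20 (95% interval -0.38 to -0.03, adjusted p = 0.0618).

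The second Klf3 probe (mm9, chromosome 5, 65223991 to 65224050), on the same strand and further downstream, read 3.86, 3.83 and 3.89 in control, 3.90, 3.95 and 3.93 in Ph3h and 3.76, 3.92 and 3.79 in Ph24h. All of its Ph3h arrays lay just above control, and Ph24h overlapped both. Its differences from control were 0.07 at 3 h (adjusted p = 0.415) and -0.04 at 24 h (adjusted p = 0.635). Within an array, the change of the first probe minus that of the second was -0.24, -0.39 and -0.52 in Ph3h and -0.37, -0.59 and -0.49 in Ph24h, beside 0.05, -0.02 and -0.03 in control. Neither fed group overlapped control (two-sided exact permutation p = 0.10 for each, the smallest possible). With the mean of both probes the difference of Klf3 at 3 h was -0.12 on the log2 scale and missed the threshold (adjusted p = 0.0987).

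**Figure D3:**
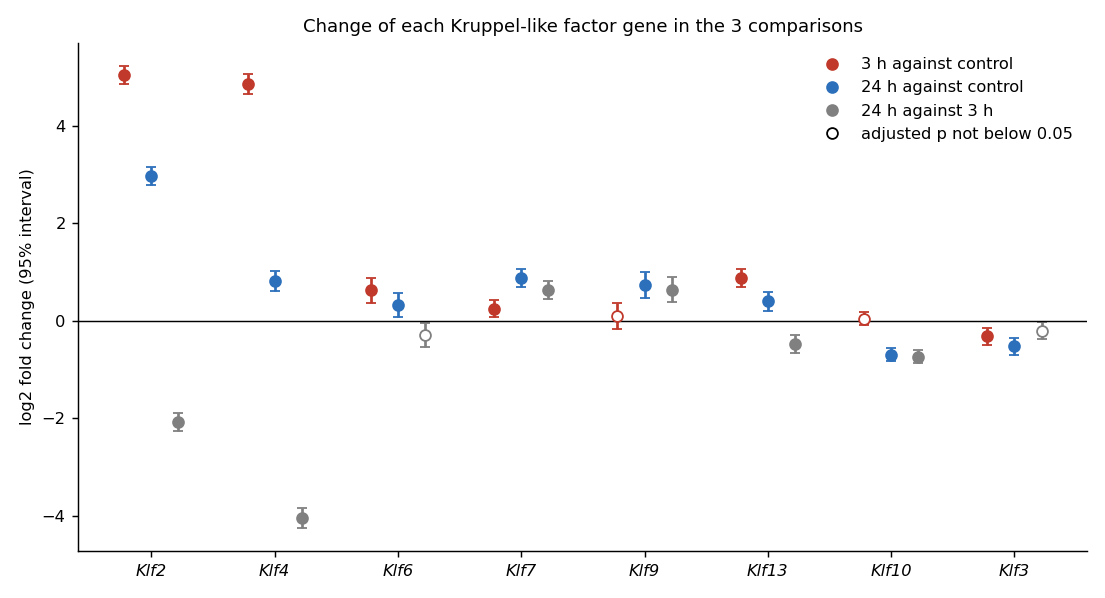
Log2 fold change of each Kruppel-like factor gene (vertical axis) between Ph3h and control, Ph24h and control, and Ph24h and Ph3h, with 95% intervals from the fit (3 arrays per group). Filled points passed an adjusted p below 0.05. Klf2 (5.04) and Klf4 (4.85) stand far above the other 6 genes at 3 h, whose values lie between -0.32 and 0.87.

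Between 24 h and 3 h, Klf7 and Klf9 were higher and Klf2, Klf4, Klf10 and Klf13 were lower, while 20.3% of all genes were higher and 24.0% lower. The median of the 8 genes was -0.38, beside 0.04 over all genes. These 6 differences kept their direction under every scaling tried. Against control, all 3 arrays lay above all control arrays for 5 genes at 3 h and 6 at 24 h, and below them for 1 and 2. Over all genes tested, 35.2% lay above and 30.5% below at 3 h, beside 34.7% above and 36.6% below by 24 h. The counts of the 8 genes are small, and nothing particular to the family was read from them. A regression on time was fitted after the study's methods, with degree 2 chosen here, and passed the F test with R² above 0.7 for 9 of the 10 measured member probes, as for 21576 of 34381 probes in all. R² was 0.999 for Klf2 and 0.998 for Klf4, and the second Klf3 probe, with R² of 0.48, did not pass.

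The arrays can be set to each other in other ways. Median and spike-in scaling move the zero point of every gene by the same amount, while quantile normalization moves genes unequally. Scaling on 7 spike-in probes, chosen after seeing the data, shifted all log2 fold changes by -0.88 at 3 h and -0.82 at 24 h, and median scaling shifted them by -0.25 and -0.51. The shift at 24 h against 3 h was 0.06 and -0.26. Rises against control smaller than these shifts, here and for the related genes below, therefore become falls, and falls become larger. Under these 2 scalings the median change over all genes moved by the same amount, so the distance of a gene from the median gene stayed as it was. With quantile normalization it did not, and at 24 h the change of Klf6 went from 0.33 to 0.17 and that of Klf13 from 0.40 to 0.52. With the 75th percentile, and so with median or spike-in scaling, this distance at 3 h was 4.97 for Klf2, 4.78 for Klf4, 0.81 for Klf13, 0.55 for Klf6, 0.18 for Klf7, 0.03 for Klf9, -0.02 for Klf10 and -0.38 for Klf3. At 24 h it was 2.96 for Klf2, 0.87 for Klf7, 0.80 for Klf4, 0.73 for Klf9, 0.39 for Klf13, 0.32 for Klf6, -0.53 for Klf3 and -0.70 for Klf10.

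**Figure D4:**
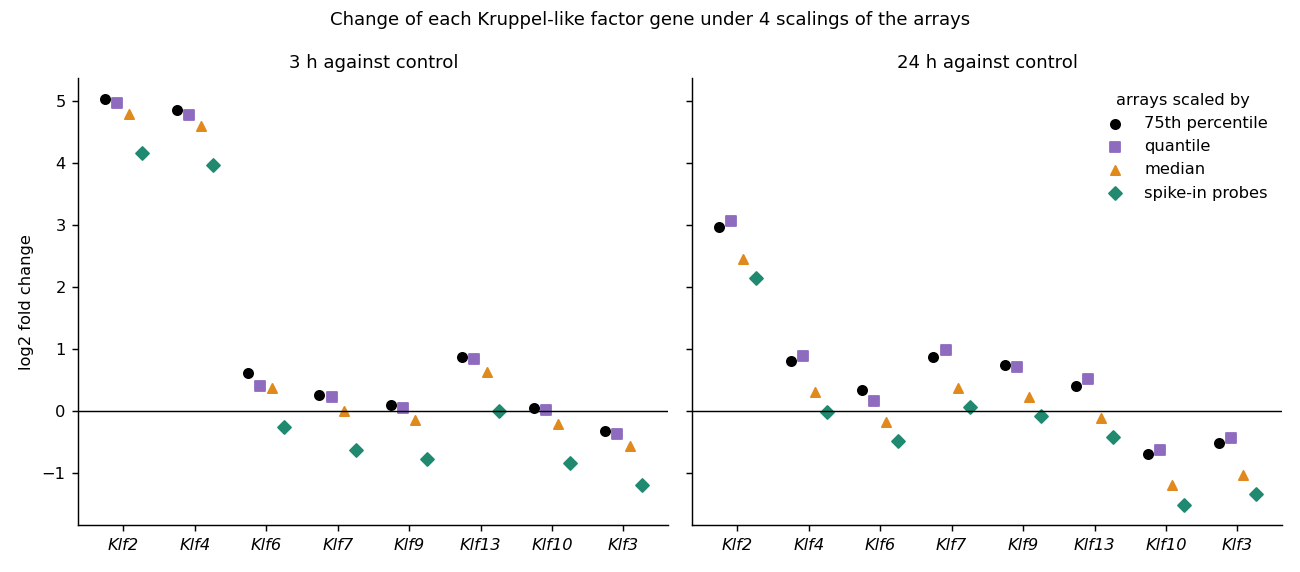
Log2 fold change of each Kruppel-like factor gene (vertical axis) at 3 h and 24 h against control, with the arrays scaled by their 75th percentile, by quantile normalization, by their median or by spike-in probes (symbols). Klf2 stayed at 4.16 or above at 3 h and at 2.15 or above at 24 h, Klf4 at 3.97 or above at 3 h, and Klf10 and Klf3 stayed below 0 at 24 h, while the other 24 h values cross 0 or, for Klf7, come to 0.06.

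The genes with the most similar course over the 9 arrays were sought among 16702 genes well above background on all arrays, by Euclidean distance of log2 levels after subtracting each gene's control mean. For Klf4 these were Cish, a feedback inhibitor of cytokine signaling (distance 0.738, mean changes 4.50 and 0.97 at 3 h and 24 h), and Nr4a2, an immediate early nuclear receptor (distance 0.963, changes 4.37 and 0.58). For Klf2 they were Efnb2, an ephrin (1.96, changes 5.61 and 3.87), and Gem, a small GTPase (2.04, changes 4.67 and 1.86). These distances for Klf2 were larger than those to the nearest genes of any other member. The nearest genes were U2surp and Cul2 for Klf3, Tet3 and Rab6b for Klf7, Zfp866 and Dst for Klf9, and Tbl1x and Ncoa4 for Klf10, at distances from 0.109 to 0.307. Klf6 was nearest to a probe without a gene symbol (0.195) and to Nkg7 (0.204), and Klf13 to Tsc1 (0.206) and to a probe without a gene symbol (0.215). Among the members themselves, Klf7 and Klf9 were the closest pair (0.498).

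Of the other Kruppel-like factors, 4 of 9 were measured. Klf16 was higher at 3 h (log2 fold change 0.56, adjusted p = 2.01e-04) and Klf15 was lower at 3 h and higher at 24 h (-0.62 and 0.83, adjusted p = 0.0436 and 0.0116). Klf11 was well above background on 2 of 3 arrays in each fed group and changed by 0.25 and 0.26 without passing the test. Klf5 was well above background on only 1 of 9 arrays, and its call at both times is given no fold. Klf1, Klf8, Klf12, Klf14 and Klf17 were well above background on none. Among the Sp factors, which share the zinc fingers and bind the same GC boxes, 7 of 9 were measured, and 2 were higher and 1 lower at each time. Sp1 fell by 1.20 and 1.02 on the log2 scale at 3 h and 24 h, Sp4 rose by 0.78 and 0.98, and Sp8 was 5.08-fold and 8.58-fold higher, whereas Sp2, Sp3, Sp6 and Sp7 passed the test at neither time.

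The listed cofactors of these factors were all measured. Of the 10 genes 2 were higher and 3 lower at 3 h, then 2 higher and 4 lower by 24 h. Ctbp2, a corepressor bound by Klf3, was higher at both times (0.87 and 1.19), as was Crebbp, a histone acetyltransferase (1.53 and 2.18), while the related Ep300 was lower (-1.07 and -0.71) and Hdac2 was lower (-0.42 and -0.67). Of ubiquitin ligases that mark Kruppel-like factors for breakdown, the 3 listed here were lower at both times. The values were -0.68 and -1.95 for Wwp1, -0.76 and -0.94 for Siah1a and -0.44 and -0.43 for Fbxw7. The medians of these lists were -0.10 and -0.19 for the cofactors and -0.68 and -0.94 for the ligases, beside 0.07 and 0.01 over all genes. Over all genes, 27.9% were called higher and 25.9% lower at 3 h, then 29.9% higher and 33.2% lower by 24 h. Beside these shares the counts in these lists, among the Sp factors and in the lists below are small, and nothing was read from them.

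In the MEK5-ERK5-MEF2 pathway, which induces Klf2 and Klf4 in endothelial cells, 1 of 7 genes was higher and 4 lower at 3 h, then 1 higher and 5 lower by 24 h (medians -0.23 and -0.42). Map3k2, a kinase at its head, was lower by -1.07 and -1.27, Mapk7, which encodes ERK5, changed by -0.76 and -0.24, and Map3k3 by -0.33 and -0.82. Mef2a, one of the factors that bind the MEF2 box, was higher at 24 h (0.93, adjusted p = 2.31e-04) and not called at 3 h (-0.14, adjusted p = 0.331). Transcript levels of a kinase say nothing of its activity.

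Genes described in other cells as regulated by Klf2 or Klf4 did not move as a block. Of 11 listed, 9 were measured, and 5 were higher and 3 lower at each time (medians 0.19 and 0.23). Arg1, an enzyme of alternative activation, was lower at 3 h (-0.98, adjusted p = 0.00747) and higher at 24 h (5.05, adjusted p = 1.70e-06). Mrc1 of the same list went the other way, at 1.02 at 3 h (adjusted p = 9.12e-05) and -1.45 at 24 h (adjusted p = 1.28e-05). Nos2, the inducible nitric oxide synthase, was 0.18 at 3 h (adjusted p = 0.254) and rose by 2.33 at 24 h, and the integrin Itgb7 was -1.01 and then 2.27. Ccr7 was well above background on 1 array of each fed group and on no control array, and its call at both times is given no fold. Thbd, which encodes thrombomodulin and is named here after its values were seen, was higher at both times (1.10 and 0.23). Cdkn1a was at 0.93 and -0.17 and S1pr1 at 0.19 and -0.39, all of them called. Nos3 was lower at 3 h (-0.57, adjusted p = 0.0432) and not called at 24 h (-0.29, adjusted p = 0.237). Mrc1, Cdkn1a, S1pr1 and Nos3 were also named after the values were seen.

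Around Klf9, 4 of 7 measured genes of the glucocorticoid and thyroid hormone list were higher and 2 lower at 3 h, then 2 higher and 2 lower by 24 h (medians 0.26 and -0.09). Per1 rose by 2.01 and 0.98, while Tsc22d3 and Fkbp5, both induced by glucocorticoids, were higher at 3 h (0.84 and 0.26) and lower at 24 h (-0.66 and -0.69). Zbtb16, also induced by glucocorticoids, was higher at both times (1.12, adjusted p = 0.00104, and 1.14, adjusted p = 7.60e-04), and was well above background on 1 of 3 control arrays. At 24 h the called genes of this list went both ways, and their relation to the rise of Klf9 was not tested. Around Klf10, 5 of 7 genes of the TGF-beta pathway were higher and 1 lower at 3 h, then 2 higher and 4 lower by 24 h (medians 0.45 and -0.21). Smad7, the inhibitory Smad, rose by 2.06 and 0.44. The signal transducer Smad3 rose by 0.97 at 3 h and fell by 1.09 at 24 h, and the receptors Tgfbr1 and Tgfbr2 were at -0.32 and 0.48 at 3 h and at -1.41 and -1.20 at 24 h.

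**Figure D5:**
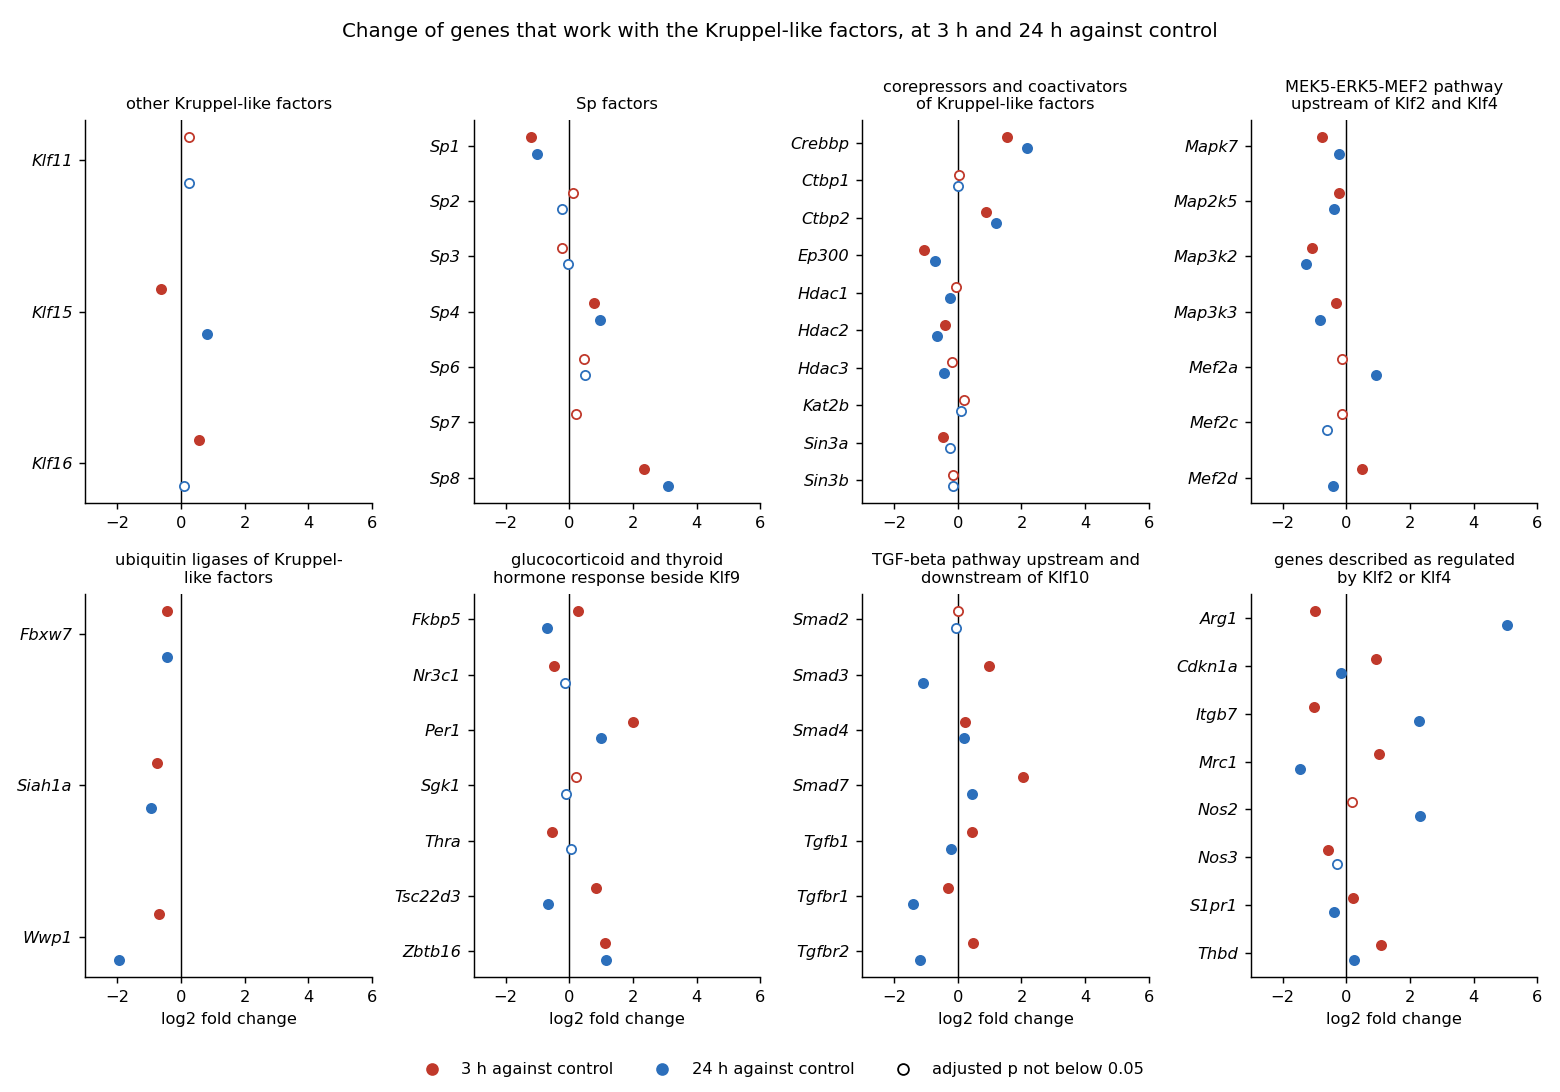
Log2 fold change (horizontal axis) of genes that work with the Kruppel-like factors, in 8 lists, at 3 h (red) and 24 h (blue) against control. Filled points passed an adjusted p below 0.05, and a value is left out where no array of one of its groups was well above background. The 3 listed ubiquitin ligases lie below 0 at both times. Arg1 goes from -0.98 to 5.05 and Mrc1 from 1.02 to -1.45.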

How the data were processed

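Total RNA of 9 cultures was hybridized to one-color Agilent 60-mer arrays on 2 slides. The authors deposited scanner files whose processed signal is a background-subtracted intensity on a linear scale (Agilent Feature Extraction 10.7.3.1, per the file headers), and a table of log2 values for 36655 probes, centered on each probe's mean, for which the scaling method was not given in the sources. That table was used only as an alternative. Other deposited columns gave spot flags and names.

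Intensities were converted to log2, flagged spots left out, spots averaged and the array's 75th percentile subtracted. Of 34381 probes well above background on at least 1 array, the brightest stood for each of 24101 genes. The group means were compared in limma 3.58.1 (R 4.3.3). The fit was tested on simulated data. Probe coordinates are those of the files (mm9).

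The members and lists were chosen with earlier results of these data known. Named were all members with every probe and every measured other Kruppel-like or Sp factor. Up to 4 called genes with the largest change were named per other list, and 2 most similar genes per member. For the genes described as regulated by Klf2 or Klf4, the rest of the measured list was named too. Alternatives were other scalings, normexp (offset 50), the authors' table, other filters, the mean over probes, the replicate number or slide as a block, slide 1 alone, a variance trend, 2-group fits and leaving out each array. With 3 arrays a group, the number of arrays limits the precision.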

Additional observations from a re-analysis of the deposited data

Results flagged for a closer look

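For 6 of the 8 genes the difference from control was not the same at 24 h as at 3 h, by the test of the 24 h against the 3 h arrays themselves in limma. Klf4 (-4.04, adjusted p = 5.08e-07), Klf2 (-2.07, adjusted p = 2.06e-06), Klf10 (-0.74, adjusted p = 3.64e-05) and Klf13 (-0.48, adjusted p = 0.00220) were lower at 24 h on the log2 scale. Klf7 (0.63, adjusted p = 4.38e-04) and Klf9 (0.64, adjusted p = 0.00261) were higher. No outlying array could be tested for with 3 arrays a group.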

How the results depend on the processing

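Beside the main setting, 13 alternatives were run on each gene and each count, and each array was left out in turn. Klf2 in all 3 comparisons, Klf4 at 3 h and from 3 h to 24 h, Klf3 and Klf10 at 24 h, and Klf7, Klf9 and Klf10 from 3 h to 24 h kept their direction and their call in all of them. None of the alternatives used the second Klf3 probe alone, which was -0.04 at 24 h in the limma fit over all probes (adjusted p = 0.635). Over all genes, comparisons and alternatives 480 values kept call and direction, 25 lost the call, 10 gained it and 13 turned. Median scaling gave -0.15 for Klf9 and -0.20 for Klf10 at 3 h, and -0.18 for Klf6 and -0.11 for Klf13 at 24 h, and left 3 genes higher at 24 h in place of 6. Spike-in scaling, chosen after seeing the data, gave -0.26 for Klf6, -0.63 for Klf7, -0.78 for Klf9, -0.83 for Klf10 and -0.0047 for Klf13 at 3 h, and -0.0096 for Klf4, -0.49 for Klf6, -0.0837 for Klf9 and -0.42 for Klf13 at 24 h. It left 2 genes higher and 4 lower at 3 h, with 1 higher and 4 lower by 24 h. The mean over probes and slide 1 alone each left 0 genes lower at 3 h in limma, where Klf3 had adjusted p of 0.0987 and 0.0712. Leaving out each array gave 4 to 5 genes higher and 1 lower at 3 h, 5 to 6 higher with 2 lower by 24 h, and from 3 h to 24 h 2 higher with 4 to 5 lower.

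Same-numbered arrays of different groups did not deviate together (correlations -0.057 to 0.041 over 9 pairs), so the replicate numbers were not taken to pair the samples. With the replicate block, Klf7 at 3 h had an adjusted p of 0.0536 and no other call of the 8 genes changed. Of all genes called, the share higher was 51.8% at 3 h and 47.4% at 24 h, and was 33.6% and 23.8% with median scaling, 66.9% and 65.0% with no filter and 10.0% and 15.4% with spike-in scaling. The cause of these differences was not tested.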
